A study of Homo sapiens with 6 samples.

Results

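The genes described here are 48 genes of DNA damage signalling and repair, taken by symbol from the 58825 genes of the deposited table. They cover 10 routes, from the kinases that signal damage to the RecQ helicases that unwind DNA, and their messenger RNA was compared between MHCC97H cells labelled shPTBP1 and MHCC97H cells labelled shControl. MHCC97H is an established human hepatocellular carcinoma line. The shPTBP1 libraries, numbered 1 to 3, carry the genotype label PTBP1 knockdown (a short hairpin RNA against PTBP1, an RNA-binding splicing regulator), and the shControl libraries, also numbered 1 to 3, are labelled WT. The labels do not say whether the libraries of a group came from separate cultures, so p-values measure the spread between these libraries, which may be technical. No DNA-damaging agent is named in the labels for either group, and the study used the comparison to ask how depletion of PTBP1 alters the transcriptome of hepatocellular carcinoma cells.

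Cells meet DNA damage with a layered response. The kinases ATM and ATR sense breaks and stalled replication forks and pass the signal to the checkpoint kinases CHEK2 and CHEK1, which hold the cell cycle. The lesion itself is then handled by the route that fits it: homologous recombination and non-homologous end joining for double-strand breaks, the Fanconi anaemia pathway for crosslinks between strands, mismatch repair for replication errors, base excision repair for small base lesions and nucleotide excision repair for bulky ones. Many of these genes are transcribed with the cell cycle, and transcription factors of the E2F family act at the promoters of a number of them.

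Between 68704509 and 85317970 counts per library were available. PTBP1 itself (chromosome 19 of hg38, 797075 to 812327) had 17.3, 16.9 and 18.0 FPKM (fragments per kilobase of transcript and 1e6 fragments) in shPTBP1 1, 2 and 3, against 21.2, 16.4 and 27.4 FPKM in shControl 1, 2 and 3. The groups overlapped, with a log2 fold change for PTBP1 of -0.29 and an SE (standard error) of 0.18 (adjusted p = 0.953 by the quasi-likelihood test of edgeR). Directions are therefore stated for libraries by their labels. The study also checked its PTBP1 hairpins in MHCC97H cells by western blot and quantitative PCR, which is evidence outside these counts. Of 8 hepatocyte and hepatoma markers, KRT8 and KRT18 had between 301 and 435 CPM (counts per 1e6 counts) in every library, while ALB, AFP, TTR and FGB were at 0 in all 6 libraries. Red-cell transcripts summed to 849, 760 and 1.15 CPM in shPTBP1 1, 2 and 3 and to 1279, 799 and 1.32 CPM in shControl 1, 2 and 3, which sets the libraries numbered 3 apart from the others in both groups. The part of these transcripts in the values below was not tested. For some genes the values of the libraries numbered 1 and 2 alone are also given.

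None of the 48 repair genes was called as changed between shPTBP1 and shControl cells (adjusted p under 0.05, edgeR), against 6 of the 19393 genes tested, or 0.0309%. At an adjusted p under 0.1 it was again 0 of 48, against 0.0413% of all genes. With shares this small over all genes, 0 calls in 48 says little about the repair genes themselves. All 48 members passed the filter on low counts. The smallest adjusted p of a member was 0.718 in edgeR. DESeq2 called 0 members, with a smallest adjusted p of 0.299, and 165 of all genes. Its filter differs and its share over all genes is not given here, so nothing is read from these DESeq2 counts. At an unadjusted p under 0.05, edgeR gave 1 member, XRCC3, or 2.08% of the 48, against 5.69% of all genes (3.58% higher and 2.11% lower). The log2 fold changes ran from -0.53 for ERCC5 to 0.63 for XRCC3, with a median of -0.05 over the members and -0.01 over all genes tested. A negative value was found for 35 of 48 members (72.9%), against 52.0% of all genes.

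The data bounded most of these differences tightly. The 95% confidence interval of the fold change stayed within 1.5-fold in either direction for 37 members and within 2-fold for 45. The 3 members with wider intervals were XRCC3, MSH6 and ERCC5, each taken up below. In 35 of 48 members the highest of the 6 libraries was less than 1.5 times the lowest, against 34.0% of all genes tested. All genes tested include genes of low counts, and the comparison was not matched for level.

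**Figure D1:**
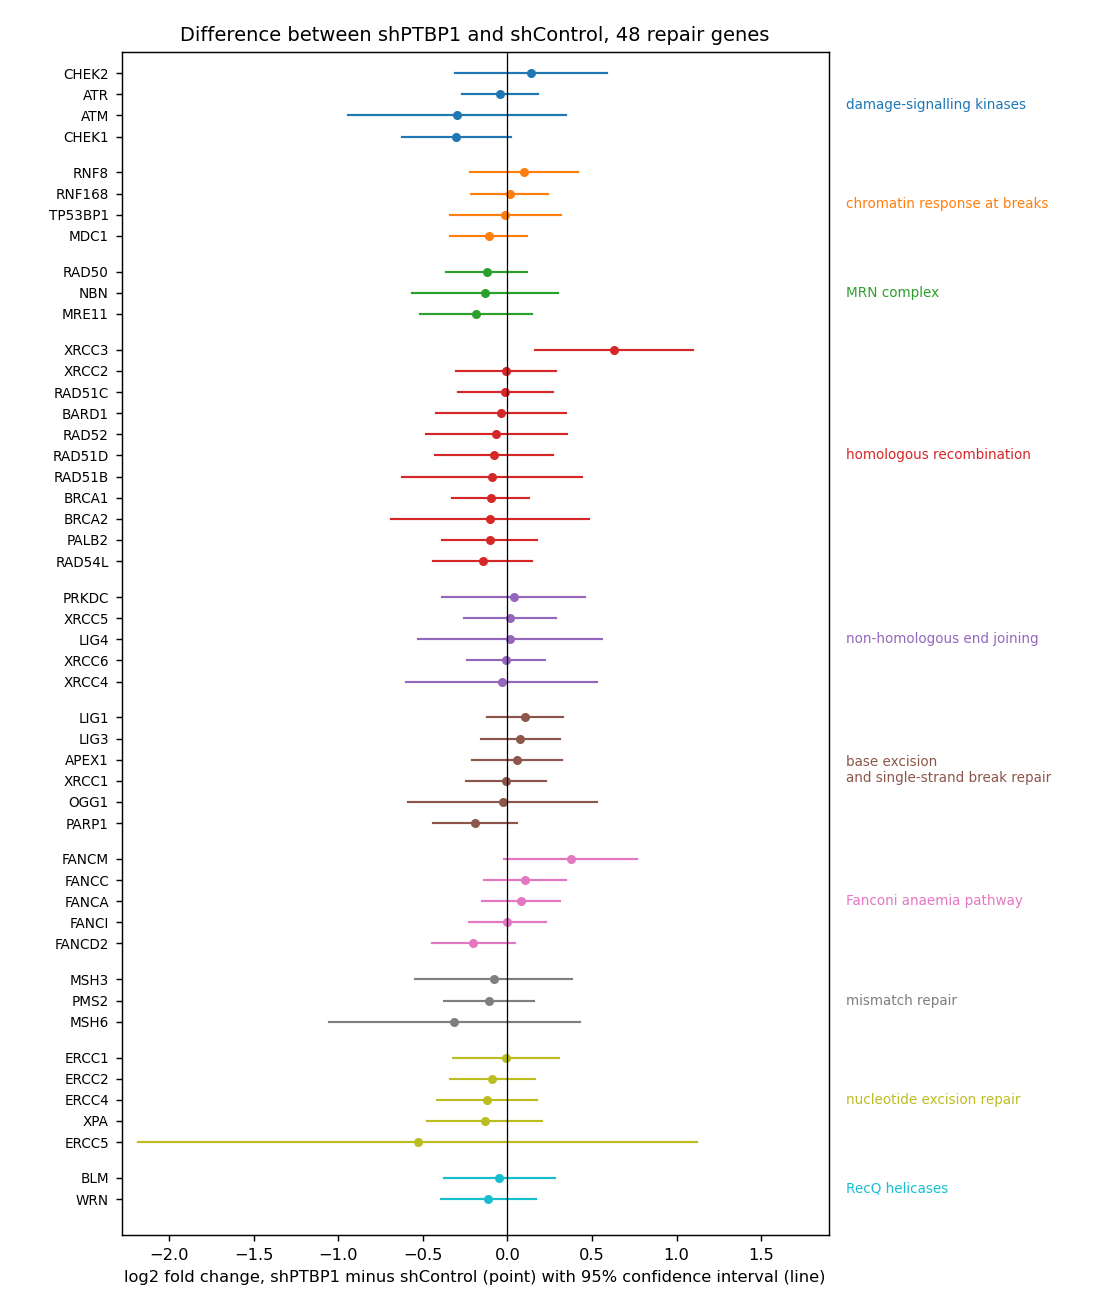
Log2 fold change of each of the 48 repair genes in shPTBP1 minus shControl cells (points) with its 95% confidence interval (lines) from edgeR, grouped by repair route, from 3 libraries per group. XRCC3 at 0.63 is the 1 gene whose interval does not reach 0, and ERCC5 at -0.53 has the widest interval, from -2.18 to 1.12.

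The level of the repair genes differed far more between genes than between groups. On the FPKM scale, which corrects for length, the mean over the 6 libraries ran from 0.55 for BRCA2 to 219 for XRCC6, with a median of 6.17. Of the 48 members, 46 had at least 1 FPKM and 12 at least 10 FPKM. The 2 members under 1 FPKM were BRCA2, which loads the recombinase onto single-stranded DNA, and RAD51B, a recombinase paralog.

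The most abundant members belonged to end joining and single-strand break repair. XRCC6, the Ku70 subunit that caps broken DNA ends, had 218, 212 and 219 FPKM in shPTBP1 1, 2 and 3, against 235, 225 and 204 FPKM in shControl 1, 2 and 3. XRCC5, its partner Ku80, had 95.1, 95.5 and 111 FPKM in shPTBP1 cells, against 110, 96.4 and 97.8 FPKM in shControl cells. The levels of both subunits overlapped between the groups, and every library held more XRCC6 than XRCC5.

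PARP1, which marks single-strand breaks with poly(ADP-ribose), and PRKDC, the catalytic subunit of the DNA-dependent protein kinase, followed at mean levels of 58.7 and 57.8 FPKM. These neighbours in the order did not differ beyond their spread, since PRKDC alone ranged from 48.1 to 73.0 FPKM over the 6 libraries. APEX1, the endonuclease that cuts at abasic sites, came next at 44.6 FPKM, ahead of FANCI at 26.4 and MDC1 at 16.3 FPKM.

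**Figure D2:**
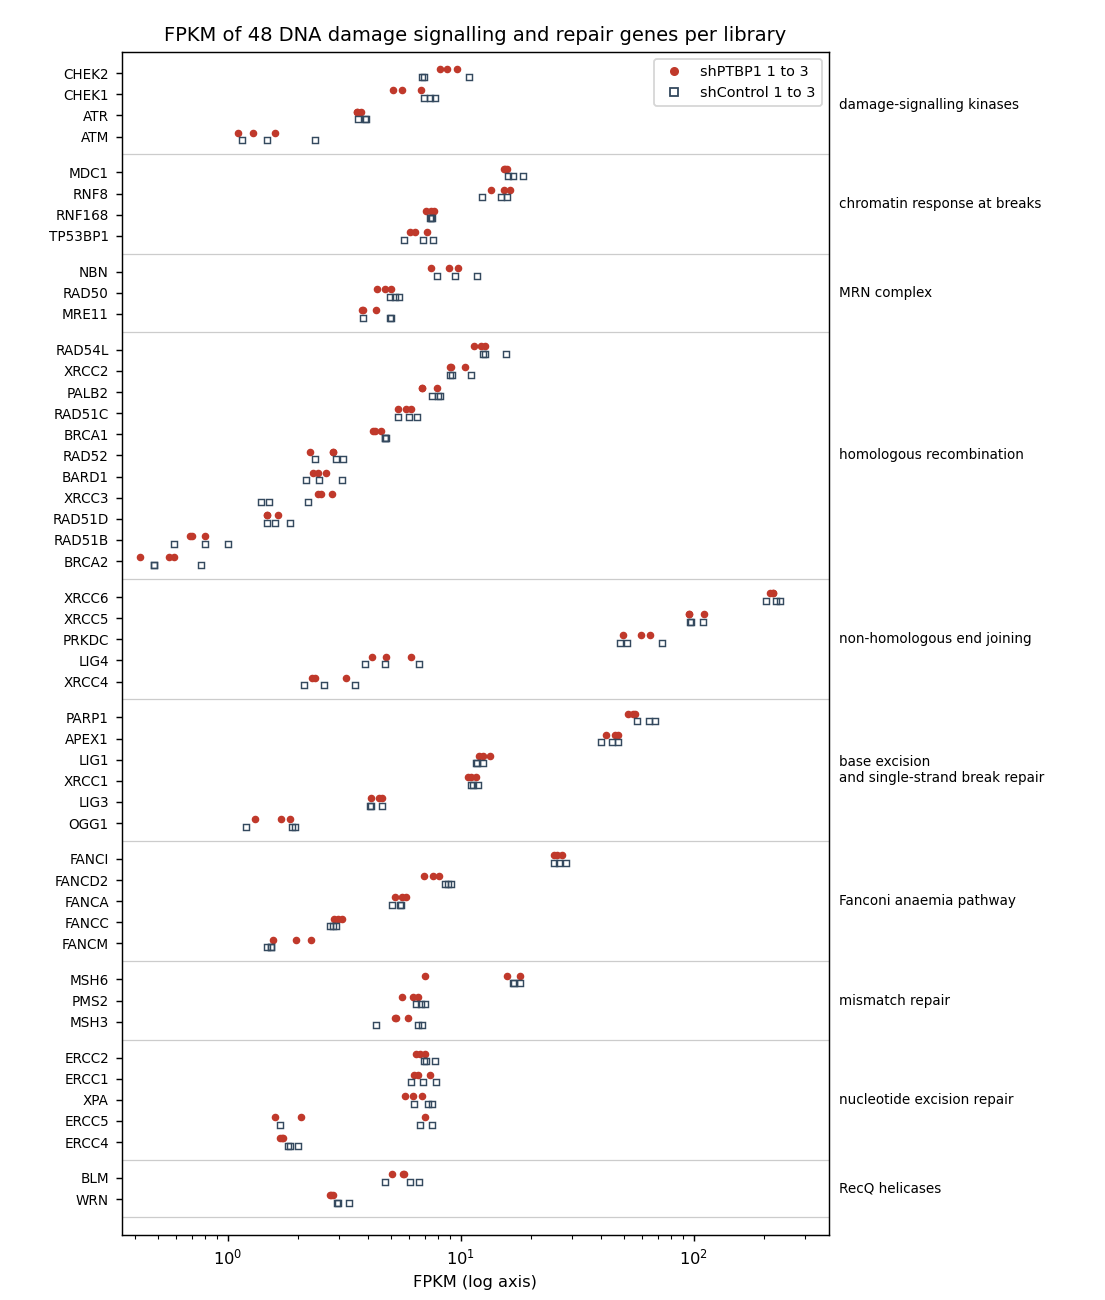
FPKM of the 48 repair genes on a log axis, grouped by repair route, with shPTBP1 libraries as filled circles and shControl libraries as open squares. Genes span from about 0.55 FPKM (BRCA2) to 219 FPKM (XRCC6) while most genes keep their 6 libraries close together, apart from ERCC5 and MSH6.

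Because many repair genes follow the cell cycle, the promoters of the members were searched for E2F-type sites. RefSeq sequence (GRCh38.p14, 250 bases before to 50 after a gene's start) was matched by symbol for 43 of 48 members. The letters TTTCCCGC, TTTGGCGC, TTTGCCGC or TTTCGCGC occurred on either strand in 9 of these 43 (20.9%), against 3.99% of the 27305 genes with promoter windows. A gene counted if any of its listed windows held the letters. The 27305 genes were not matched to the members for base composition, level or number of windows. Such a match is a description of the letters and not evidence of binding. The 9 windows are shown because they include 3 of the 3 mismatch repair members and 3 of the 5 Fanconi anaemia members, with the match in capitals and up to 10 bases on each side of the first match, written 5′ to 3′ along the gene. In MSH3 the capitals hold 2 overlapping matches, TTTGGCGC and, on the other strand, TTTCGCGC.
XRCC2 (chr7:152676103-152676130, minus strand): ggcgttggtgGCGGGAAAgttgagtctc
XRCC6 (chr22:41621327-41621344, plus strand): tcgcttccctGCGCCAAA
LIG1 (chr19:48170441-48170468, minus strand): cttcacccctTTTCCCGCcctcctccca
FANCA (chr16:89816802-89816829, minus strand): ctacaccgcgGCGGCAAAgccaaacgca
FANCC (chr9:95317864-95317891, minus strand): cggggcttccGCGCGAAAccgggaacac
FANCD2 (chr3:10026425-10026452, plus strand): gtcgggcctgGCGGGAAAgtcgaaaact
MSH3 (chr5:80654535-80654562, plus strand): cgcggtcaagTTTGGCGCGAAAttgtgg
MSH6 (chr2:47783138-47783165, plus strand): tccccccagaTTTCCCGCcagcaggagc
PMS2 (chr7:6009132-6009159, minus strand): gggaagtattTTTGCCGCcccgcccgga

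The 9 members with such a match had log2 fold changes between -0.31 and 0.11, with a median of -0.01, and the 34 members without one had values between -0.53 and 0.63, with a median of -0.06. Other promoter letters were searched on both strands in the same windows, again without matching. The CCAAT box (CCAAT) was present in 24 of 43 members (55.8%), against 39.7% of all genes with a window. The cell-cycle letters TTTGAA or TTCGAA were present in 5 (11.6%) against 19.5%, and the TATA box letters TATAAA in 1 (2.33%) against 14.0%.

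No damage-signalling kinase passed the test, and the libraries of both groups overlapped for all 4. CHEK1, the kinase that restrains entry into mitosis when replication stalls, had 44.1, 40.1 and 54.1 CPM in shPTBP1 1, 2 and 3, against 57.9, 53.7 and 58.8 CPM in shControl 1, 2 and 3. The ranges met only at shPTBP1 3 and shControl 2. The log2 fold change of CHEK1 was -0.30 with an SE of 0.14 (edgeR, unadjusted p = 0.0620, adjusted p = 0.895), and over the libraries numbered 1 and 2 it was -0.41 (adjusted p = 0.189).

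ATM, the break-sensing kinase, had 36.8, 45.8 and 32.5 CPM in shPTBP1 cells, against 33.2, 67.4 and 40.9 CPM in shControl cells, with 1 high control library. Its target CHEK2 had 52.3, 43.5 and 47.7 CPM in shPTBP1 cells, against 37.6, 36.4 and 56.4 CPM in shControl cells. The groups overlapped for both genes, with log2 fold changes of -0.30 and 0.14. ATR, which answers stalled forks, was flat at -0.04 (95% confidence interval -0.27 to 0.18).

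The genes that prepare chromatin around a break had small differences between the groups. All 4 members of this route had intervals within 1.5-fold, as did 37 of all 48 members. The log2 fold changes of the 4 ran from -0.11 to 0.10. MDC1, the adaptor that binds phosphorylated histone at breaks, had 140.5, 139.9 and 146.1 CPM in shPTBP1 cells, against 146.2, 165.8 and 148.6 CPM in shControl cells. Every shPTBP1 library thus lay below every shControl library by a narrow margin, with a log2 fold change of -0.11 (adjusted p = 0.967, edgeR). The ubiquitin ligases RNF8 and RNF168 and the end-joining mediator TP53BP1 overlapped between the groups.

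The 3 subunits of the MRN complex, which tethers and trims broken ends, all had log2 fold changes a little below 0, from -0.18 to -0.12. MRE11, its nuclease, had 39.9, 34.4 and 35.7 CPM in shPTBP1 cells, against 35.05, 44.95 and 44.95 CPM in shControl cells (adjusted p = 0.957, edgeR). The groups overlapped for MRE11, RAD50 and NBN alike.

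Of the 11 members of homologous recombination, 10 had log2 fold changes between -0.15 and -0.01 and 1, XRCC3, lay at 0.63. BRCA1, the ubiquitin ligase that directs breaks to recombination, had 46.8, 50.6 and 48.5 CPM in shPTBP1 cells, against 52.97, 52.3 and 51.1 CPM in shControl cells. The shPTBP1 libraries of BRCA1 were all lower, by a log2 fold change of -0.10 (95% confidence interval -0.33 to 0.13). BRCA2, the least abundant member, had 0.59, 0.42 and 0.56 FPKM in shPTBP1 cells, against 0.48, 0.48 and 0.77 FPKM in shControl cells, and its groups overlapped.

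XRCC3, a recombinase paralog that acts late in strand exchange, was the member with the smallest p. The gene lies on the minus strand of chromosome 14 (hg38, 103697609 to 103715504). XRCC3 had 22.1, 22.6 and 25.5 CPM in shPTBP1 1, 2 and 3, against 13.6, 12.4 and 19.4 CPM in shControl 1, 2 and 3. All shPTBP1 libraries lay above all shControl libraries, with shControl 3 the highest control. The difference was 0.63 on the log2 scale, with an SE of 0.20 and an unadjusted p of 0.0152 in edgeR, which did not pass the threshold after adjustment (adjusted p = 0.718 from edgeR and 0.299 from DESeq2). Over the libraries numbered 1 and 2 it was 0.78 (adjusted p = 0.108, edgeR).

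XRCC3 overlaps another gene in position, and whether this affects its value was not tested. Its exons lie across those of KLC1, a kinesin light chain gene on the opposite strand (chromosome 14, 103561896 to 103714249), and 5756 of the 7507 exonic bases of XRCC3 (76.7%) and 605 of its 1082 coding bases fall in exons of KLC1 in GENCODE release 29. KLC1 had 119.9, 124.9 and 125.1 CPM in shPTBP1 cells, against 78.0, 80.6 and 88.8 CPM in shControl cells. The KLC1 groups did not overlap, and its log2 fold change of 0.58 (SE 0.10) was close in size to that of XRCC3, with an adjusted p of 0.222 from edgeR and 0.0173 from DESeq2.

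The ratio of XRCC3 to KLC1 counts was 0.184, 0.181 and 0.204 in shPTBP1 1, 2 and 3, against 0.174, 0.154 and 0.218 in shControl 1, 2 and 3. The groups overlapped in this ratio. The preparation marks strand with dUTP, but counting by strand is not given in the sources used here. Whether reads of XRCC3 and of KLC1 over the shared bases were kept apart is therefore unknown. The promoter of XRCC3 lies beyond the end of KLC1 and is shown as the stretch that belongs to XRCC3 alone of the pair, with its 5 CCAAT boxes (CCAAT, or ATTGG where it reads on the other strand) in capitals.
XRCC3 promoter (chr14:103715402-103715701, minus strand): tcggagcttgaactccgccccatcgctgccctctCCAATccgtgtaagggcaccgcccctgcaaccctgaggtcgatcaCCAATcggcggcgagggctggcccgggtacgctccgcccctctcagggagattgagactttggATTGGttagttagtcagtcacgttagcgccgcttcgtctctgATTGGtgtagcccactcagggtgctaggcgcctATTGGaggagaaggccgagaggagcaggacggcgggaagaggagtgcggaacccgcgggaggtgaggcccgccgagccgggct

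**Figure D3:**
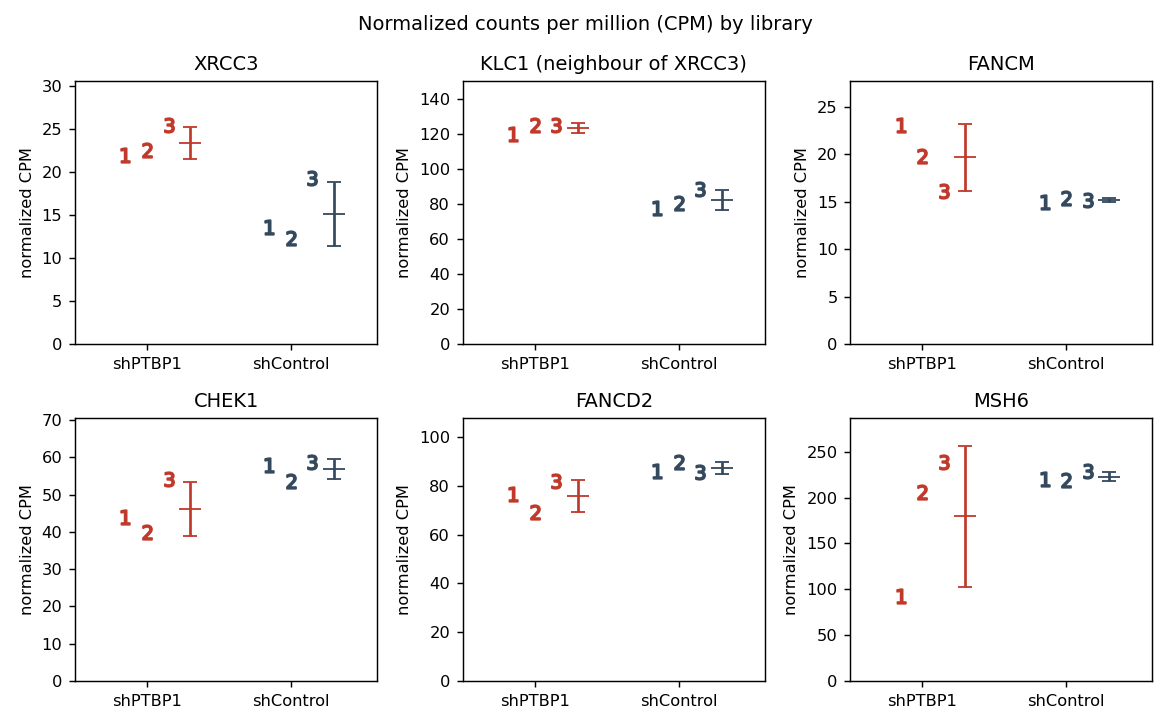
Normalized CPM of XRCC3, its opposite-strand neighbour KLC1, FANCM, CHEK1, FANCD2 and MSH6. Digits mark the library number within each group, and the bars give the mean ± SD of 3 libraries. XRCC3 and KLC1 are higher in all shPTBP1 libraries, while MSH6 is low in shPTBP1 1 alone.

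Non-homologous end joining was the flattest of the routes by point estimate, with 5 log2 fold changes between -0.03 and 0.04. PRKDC had 1097, 1188 and 933 CPM in shPTBP1 cells, against 889, 1327 and 922 CPM in shControl cells. Its 2 highest libraries came from different groups, and its log2 fold change of 0.04 changed sign when single libraries were left out, from -0.07 to 0.24. LIG4 and XRCC4, the ligase and its scaffold, had values of 0.01 and -0.03.

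In base excision and single-strand break repair, 3 members lay above 0 and 3 below. PARP1 had 448, 476 and 480 CPM in shPTBP1 cells, against 551, 576 and 477 CPM in shControl cells. The control library numbered 3 lay among the shPTBP1 libraries, and the log2 fold change was -0.19 with an SE of 0.10 (edgeR, adjusted p = 0.948). The ligases LIG1 and LIG3, the scaffold XRCC1 and APEX1 had values between -0.01 and 0.11, and the glycosylase OGG1, which removes oxidized guanine, had -0.03 with a wider interval of -0.59 to 0.53.

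The Fanconi anaemia members went both ways. FANCM, the translocase that anchors the core complex at crosslinks, had 23.1, 19.8 and 16.1 CPM in shPTBP1 1, 2 and 3, against 14.9, 15.4 and 15.2 CPM in shControl 1, 2 and 3. The shPTBP1 libraries were all higher and far more spread than the shControl libraries (19.7 ± 3.50 and 15.2 ± 0.23 CPM, SD, n = 3 each). The log2 fold change of FANCM was 0.37 with an SE of 0.17 (edgeR, unadjusted p = 0.0589, adjusted p = 0.895). It was 0.24 without shPTBP1 1, and 0.50 over the libraries numbered 1 and 2 (adjusted p = 0.199, edgeR).

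FANCD2, the protein that is ubiquitinated when the pathway is switched on, had 76.4, 69.1 and 81.9 CPM in shPTBP1 cells, against 85.9, 89.9 and 85.8 CPM in shControl cells. All shPTBP1 libraries of FANCD2 lay lower, with a log2 fold change of -0.20 (95% confidence interval -0.45 to 0.04, adjusted p = 0.933 from edgeR). Its partner FANCI had a log2 fold change of -0.0007 (95% confidence interval -0.23 to 0.23), and the core complex genes FANCA and FANCC lay at 0.08 and 0.10.

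In mismatch repair, MSH6, which pairs with its MutS partner to bind mismatched bases, stood out through 1 library. It had 92.5, 207 and 239 CPM in shPTBP1 1, 2 and 3, against 221, 219 and 229 CPM in shControl 1, 2 and 3. The low value was that of shPTBP1 1, and the log2 fold change of -0.31 became -0.0029 without that library. Over the libraries numbered 1 and 2, which include it, the log2 fold change of MSH6 was -0.56 (adjusted p = 0.507, edgeR). FBXO11, whose exons on the opposite strand share 1785 bases (16.2%) with those of MSH6, had 63.3, 61.8 and 54.3 CPM in shPTBP1 cells, against 58.6, 56.6 and 55.9 CPM in shControl cells, with no high or low library to match. The MutS gene MSH3 and the MutL gene PMS2 had log2 fold changes of -0.08 and -0.11.

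All 5 nucleotide excision repair members had log2 fold changes below 0. ERCC4, which cuts 5′ of a bulky lesion together with ERCC1, had 17.1, 17.3 and 17.9 CPM in shPTBP1 cells, against 18.8, 18.2 and 19.8 CPM in shControl cells. The groups of ERCC4 did not overlap, but the difference was small, with a log2 fold change of -0.12 (adjusted p = 0.975, edgeR). The lesion-binding gene XPA, the helicase gene ERCC2 and ERCC1 overlapped between the groups at -0.14, -0.09 and -0.01.

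ERCC5, the nuclease that cuts 3′ of the lesion, was the most uneven member. It had 17.3, 22.3 and 77.1 CPM in shPTBP1 1, 2 and 3, against 18.2, 80.4 and 70.0 CPM in shControl 1, 2 and 3. Its libraries fell into a low level (shPTBP1 1, shPTBP1 2 and shControl 1) and a high level (the other 3), which follow neither the group nor the library number. The log2 fold change of -0.53 had an SE of 0.70 (adjusted p = 0.982, edgeR), and it ran from -1.50 without shPTBP1 3 to -0.18 without shControl 2.

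BIVM-ERCC5, a read-through gene annotated at the same place on chromosome 13, showed the opposite pattern. It had 64.1, 58.4 and 0 CPM in shPTBP1 1, 2 and 3, against 63.6, 0 and 12.2 CPM in shControl 1, 2 and 3. The sum of both genes was 81.4, 80.7 and 77.1 CPM in shPTBP1 cells, against 81.8, 80.4 and 82.2 CPM in shControl cells, so that the 2 levels vanished. The summed level was 79.7 ± 2.32 CPM in shPTBP1 cells and 81.5 ± 0.96 CPM in shControl cells (SD, n = 3 each), which is -0.03 on the log2 scale with an SE of 0.09 (edgeR, adjusted p = 0.993).

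The pair share most of the ERCC5 coding sequence. Of the 15 exons of ERCC5-201, 13 are among the 25 exons of BIVM-ERCC5-204, and its first and last exons are not shared as a whole. The shared part is 3564 of its 5082 bases (70.1%) and 3470 of its 3558 coding bases (97.5%). At the 5′ end, exon 1 of ERCC5-201 (chr13:102844844-102846354) or exon 11 of BIVM-ERCC5-204 (chr13:102839572-102839803) is joined to the same exon (chr13:102852118-102852293, plus strand). The joins are shown with 30 bases on each side in GENCODE release 29, the shared exon in capitals.
ERCC5-201: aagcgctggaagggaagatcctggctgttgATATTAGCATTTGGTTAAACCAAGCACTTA
BIVM-ERCC5-204: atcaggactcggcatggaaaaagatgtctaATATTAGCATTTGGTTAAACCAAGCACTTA

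Most coding sequence of ERCC5 is thus part of both genes, and a different division of its reads between the pair cannot be told apart from RNA that differs in its 5′ end. The value of ERCC5 alone is therefore uncertain, and the summed value is independent of the division between these 2 genes. BIVM, whose exons share 1572 bases (19.1%) with those annotated for ERCC5, had 26.1, 28.9 and 32.3 CPM in shPTBP1 1, 2 and 3, against 24.6, 36.8 and 49.6 CPM in shControl 1, 2 and 3. How reads were divided between BIVM and the pair was not tested.

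**Figure D4:**
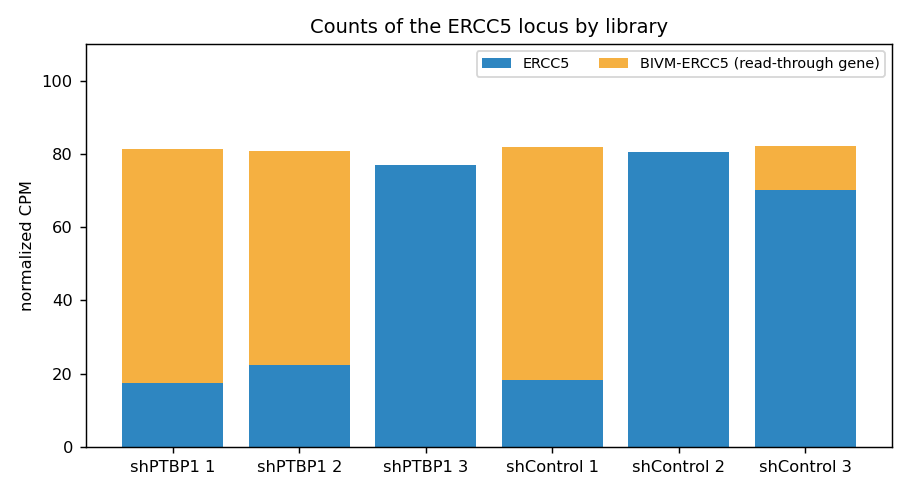
Normalized CPM of ERCC5 and of the read-through gene BIVM-ERCC5, stacked, in the 3 shPTBP1 and the 3 shControl libraries. The part counted for ERCC5 runs from 17.3 to 80.4 CPM, while the full bar stays between 77.1 and 82.2 CPM.

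Shared exons were common among the members. In GENCODE release 29, 18 of 48 shared exonic bases with another gene of at least 1 CPM, 14 of them with a gene on the opposite strand, and in 8 the shared part was at least 20% of the exonic bases. Besides XRCC3 and ERCC5, these 8 were TP53BP1, RAD54L, OGG1, LIG3, FANCA and ERCC1, with shares between 23.6% and 29.1%. The groups overlapped for each of these 6, while 11.9% of all genes tested had groups without overlap. Whether shared exons affect these values was not tested.

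The RecQ helicases BLM and WRN, which unwind recombination intermediates, had log2 fold changes of -0.05 and -0.11. WRN had 27.2, 26.2 and 27.0 CPM in shPTBP1 cells, against 28.4, 31.3 and 27.2 CPM in shControl cells. All shPTBP1 libraries of WRN lay lower, but shPTBP1 1 (27.16 CPM) and shControl 3 (27.17 CPM) were all but equal (adjusted p = 0.975, edgeR).

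Over all routes, every shPTBP1 library lay above every shControl library for 2 members, XRCC3 and FANCM, or below it for 5 (MDC1, BRCA1, FANCD2, ERCC4 and WRN). Such a separation was found in 11.9% of all genes tested, 6.49% higher and 5.46% lower. Restricted to the libraries numbered 1 and 2, an unadjusted p under 0.05 was reached by 6 members (12.5%), XRCC3, FANCM and CHEK2 on the higher side and CHEK1, PARP1 and FANCD2 on the lower, against 17.7% of all genes, and 0 members passed adjustment (smallest adjusted p = 0.108, edgeR), against 0.319% of all genes.

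The wider repair machinery gave no call either. Of 131 further repair genes, 0 passed adjustment, against 0.0309% of all genes. At an unadjusted p under 0.05, 3 were higher and 2 lower (3.82%, against 5.69% of all genes), and the median log2 fold change was -0.04. The 3 higher genes were TIMELESS, which protects replication forks (log2 fold change 0.31, adjusted p = 0.688), MLH3, a MutL gene (0.37, adjusted p = 0.785), and WEE1, the kinase that blocks mitotic entry (1.02, adjusted p = 0.858), all by edgeR. WEE1 had 115.6, 49.6 and 40.98 CPM in shPTBP1 1, 2 and 3, against 26.8, 40.6 and 34.4 CPM in shControl 1, 2 and 3, a difference carried mostly by shPTBP1 1. Of the 2 lower genes, ALKBH3, which reverses alkylation of bases, had a log2 fold change of -0.38 (adjusted p = 0.877, edgeR).

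Transcripts that p53 raises after damage were followed as a readout of signalling, and some of them are also in the list of further repair genes. Of 21 such genes, 0 passed adjustment, against 0.0309% of all genes. In this list 11 lay above 0 and 10 below, and the median log2 fold change was 0.07. CDKN1A, the cyclin-dependent kinase inhibitor p21, was the 1 gene of this list at an unadjusted p under 0.05. It had 236, 231 and 235 CPM in shPTBP1 cells, against 113, 111 and 144 CPM in shControl cells, without overlap. Its log2 fold change of 0.93 (SE 0.13) had an adjusted p of 0.140 in edgeR over all libraries, of 0.0426 in the libraries numbered 1 and 2 and of 2.7e-05 in DESeq2. Other damage-response genes lay on both sides of 0. SESN1, FDXR and BTG2 overlapped between the groups at 0.37, 0.28 and 0.23, and GADD45A, PPM1D and ZMAT3 at -0.16, -0.14 and -0.16.

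Proliferation markers, which many repair genes follow, gave no call either. Of 12, 0 passed the test (smallest adjusted p = 0.953, edgeR), against 0.0309% of all genes. Their summed level was 3954, 3898 and 3850 CPM in shPTBP1 cells, against 4158, 4216 and 3737 CPM in shControl cells. In bulk libraries, fewer cells of a kind and less RNA per cell cannot be told apart. The deposited values are per gene, so exon choice within the repair genes was not analysed here. The study also analysed splicing, and reported changed patterns in genes of DNA repair and of the response to DNA damage.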

How the data were processed

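RNA of 6 MHCC97H libraries, 3 labelled shPTBP1 and 3 labelled shControl, was analysed. The authors deposited FPKM and counts per gene in 1 table on hg38, and the tools named in the submitters' processing notes, without settings, are HISAT2 2.2.1, StringTie, cutadapt 1.9 and FastQC. The counts the authors deposited are whole numbers, but between 32.55% and 34.43% of those from 1 to 40 were multiples of 4, so they were treated as estimated counts and used after rounding, and how many fragments they stand for is unknown. The preparation marks strand with dUTP, while counting by strand is not given in the sources used here.

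The main test was the quasi-likelihood test of edgeR 4.0.16 (R 4.3.3), scaled by TMM and without covariates, on the 19393 genes kept by filterByExpr, with Benjamini-Hochberg adjustment over all of them. All CPM are TMM-normalized. A standard error is the absolute log2 fold change divided by the square root of F. Alternatives were DESeq2 1.42.0, RLE scaling, no filter, limma 3.58.1 on log2(FPKM + 1) and log2(FPKM + 0.1), a replicate block, the libraries numbered 1 and 2, number 3 as a covariate, other thresholds, each library left out, and, added after the values were seen, ERCC5 summed with BIVM-ERCC5. Steps were tested on simulated data.

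The members and lists were chosen with earlier results of these data known, and no list was tested as a set. Values per library are given for members at an unadjusted p under 0.05, members without overlap and at least 1.25-fold apart, those with the highest and lowest FPKM and the smallest p of each route. ATM, BRCA1, CHEK2, ERCC5, FANCD2 and XRCC5 were added after their values were seen. Some genes of the lists are not reported here. The lists named are other repair genes, p53 targets and markers of hepatocytes, red cells, neutrophils and monocytes, lymphocytes and proliferation. Neutrophil and monocyte markers summed to between 0.17 and 17.0 CPM in shPTBP1 and between 0.17 and 25.3 CPM in shControl libraries, low in the libraries numbered 3, and lymphocyte markers to at most 3.63 CPM. Tables and figures were made with Python 3.11.15, pandas 2.3.3, numpy 2.4.6 and matplotlib 3.10.9.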

Additional observations from a re-analysis of the deposited data

How the results depend on the processing

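The count of repair genes called stayed at 0 of 48 under each of the 15 alternatives of the fit. In limma with its filter of at least 1 FPKM it was 0 of 46, as the filter leaves out BRCA2 and RAD51B. The count of other repair genes called also stayed at 0. At most 165 of all genes were called in any of these settings, so counts of 0 say little about the repair genes. The count over all genes moved. It was 6 in edgeR, 165 in DESeq2, 1 in limma without a filter, 63 in the libraries numbered 1 and 2, 3 with number 3 as a covariate, and 2 to 136 when each library was left out, with 136 without shControl 3. With the replicate block it was 0, with 0 members changed, 1 member at an unadjusted p under 0.05 and a median log2 fold change of the members of -0.04. The deviations of same-numbered libraries over all genes tested correlated at -0.06, 0.12 and 0.02, so the numbers were not taken as pairs, although the libraries numbered 3 share a low level of blood-cell transcripts. Members at an unadjusted p under 0.05 numbered 2 in limma on log2(FPKM + 1), 2 on log2(FPKM + 0.1) and 4 without a filter. They numbered 6 in the libraries numbered 1 and 2 and 2 with the covariate. When each library was left out they numbered 0 to 4 (4 without shPTBP1 3, 3 without shControl 3, 0 without shControl 1 or shControl 2). The share over all genes is given only for the main fit (5.69%) and the libraries numbered 1 and 2 (17.7%). The counts of the other settings therefore have no background beside them, and no rise or fall is read from them. The median log2 fold change of the members was -0.09 in the libraries numbered 1 and 2 and -0.08 to -0.04 when each library was left out. The share of members below 0 ran from 60.4% to 79.2% over the alternatives, against 49.5% to 58.5% of all genes. XRCC3 kept its direction throughout, with log2 fold changes of 0.51 to 0.85 when each library was left out and adjusted p from 0.0747 (without shControl 3) to 1.00. Of 194 results of the 13 members followed, 185 kept direction and side, and the 9 that turned were those of PRKDC (-0.0687 to 0.2448 when each library was left out), XRCC6 (-0.075 to 0.0482) and BRCA2 (-0.2112 to 0.1454, and 0.0874 in the libraries numbered 1 and 2), all near 0. For these differences the cause was not tested. With 3 libraries per group, small differences could be missed. The intervals are not adjusted for the number of genes tested, so a larger difference could also fail the test. CDKN1A, at a log2 fold change of 0.93, had an adjusted p of 0.140 in edgeR. Members with shared exons carry the added limit of how reads were divided.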
